A study of Gallus gallus with 48 samples.

Results

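Spot14a and Spot14b are 2 of the 20 genes on a small oligonucleotide panel that was hybridised with liver RNA from growing chickens. They were taken by their probe names from the table of log2 values that the authors deposited, in which a value that could not be given is coded as missing. Spot14, also called thyroid hormone responsive protein, is a small acidic protein of lipid-forming tissues. Its gene is switched on in liver by thyroid hormone and by carbohydrate feeding, together with the genes of fatty acid synthesis, and the protein is known to promote lipogenesis. Birds make most of their fat in the liver, and the chicken carries the gene as a duplicated pair, which the panel reads with a probe each. In the RefSeq gene table for GRCg7b, THRSP, with the synonym THRSPA, and THRSPB are neighbouring entries. The files used here do not tie the probes to these entries by sequence.

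The animals were male Beijing-You chickens, an indigenous breed, sampled at 6, 8, 10 or 12 weeks of age, with no treatment named. Each age had 12 samples, 6 labelled with Cy3 and 6 with Cy5, and every sample was hybridised alone to 1 sub-array. The submitters list the samples of an age as biological replicates, except samples 5 and 8 of 8 weeks, which they list as a technical pair. These were averaged, which left 47 units, although their labels name different dyes. Sample 8 had no value for Spot14b, so for that probe the unit is sample 5 alone. Slides were told apart by scan time alone. The scanner files held 11 distinct scan times, and 9 of them covered more than 1 age. A slide below means the samples that share a scan time.

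Signals were weak across the panel. A sample had values for a median of 14 of the 20 genes, with a range of 3 to 20. The hepatocyte genes Apo-B, an apolipoprotein of liver lipoproteins, and L-FABP, the liver fatty acid binding protein, had values in 36 and 37 of the 48 samples. They exceeded the local background by more than 2 background SD in 5 and 13 samples. The heart and muscle form H-FABP did so in 25 samples, and OB(Mus), a leptin probe named for mouse, in 1. The number of arrays and these low signals limit the precision of all values below.

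The 2 paralogs differed in how often they could be read. Spot14a had a value in 41 of the 48 samples, which placed it 5th of the 20 genes in number of samples. Spot14b had a value in 22 samples and was 17th. A signal above 2 SD of the local background was found for Spot14a in 21 samples and for Spot14b in 4. Neither probe passed that limit in the unlabelled channel of any sample.

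Both paralogs lacked a value more often with Cy3 than with Cy5. Spot14a had values in all 24 Cy5 samples and in 17 of the 24 Cy3 samples (Fisher's exact test, 2-sided, p = 0.0094, 0.038 after Benjamini-Hochberg adjustment over the 4 tests of both paralogs by dye and by age). Spot14b had values in 15 Cy5 and 7 Cy3 samples (p = 0.0415, adjusted p = 0.0829). Across the panel, 6 of 20 genes (30%) had an unadjusted p under 0.05 in this test, of which OBR and CPT-1 had more values with Cy3 than with Cy5, and none (0%) passed after adjustment over the 20 genes. Under the limit of 2 background SD the dyes differed by 3 samples for Spot14a, 12 with Cy5 and 9 with Cy3 (adjusted p = 0.918).

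By age, Spot14a had values in 10, 9, 10 and 12 of the 12 samples at 6, 8, 10 and 12 weeks, and the permutation test over age gave p = 0.473. Spot14b had values in 3, 7, 7 and 5 samples at the same ages (permutation test, p = 0.348). At 8 weeks Spot14b had values in all 6 Cy5 samples but in 1 of the 6 Cy3 samples, so its age course rests on different dyes at different ages. Spot14b had a value without Spot14a in 1 sample, both had one in 21, Spot14a alone in 20, and neither in 6 (Fisher's exact test, p = 0.106).

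The blank probe, which carries no gene, was given a value in 12 samples, 10 with Cy5 and 2 with Cy3. All 12 were samples in which Spot14b also had a value, while Spot14b had a value without the blank in 10 samples, and 26 samples had neither (Fisher's exact test, p = 9.3e-06). The same test over the 20 genes called Spot14b alone after adjustment (adjusted p = 0.000186, 5% of genes), and Spot14a was not called (adjusted p = 0.443). Within Cy5 the test for Spot14b gave p = 0.00202, with 10 samples holding both, and within Cy3, with 2 holding both, p = 0.0761. The blank was in no sample above 2 background SD. Over the 12 shared samples the deposited values of Spot14b and the blank had a Pearson's r of 0.733 (permutation p = 0.00678, adjusted p = 0.0542 over 8 such correlations, 0.666 without the 2 farthest samples) and a Spearman's rho of 0.741 (permutation p = 0.00811, adjusted p = 0.0624). The r was 0.522 with each sample centred on the median of its measured panel genes (permutation p = 0.0792). It was 0.086 with each sample's constant taken off the authors' values (permutation p = 0.790). These comparisons were chosen after the values were seen.

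**Figure D1:**
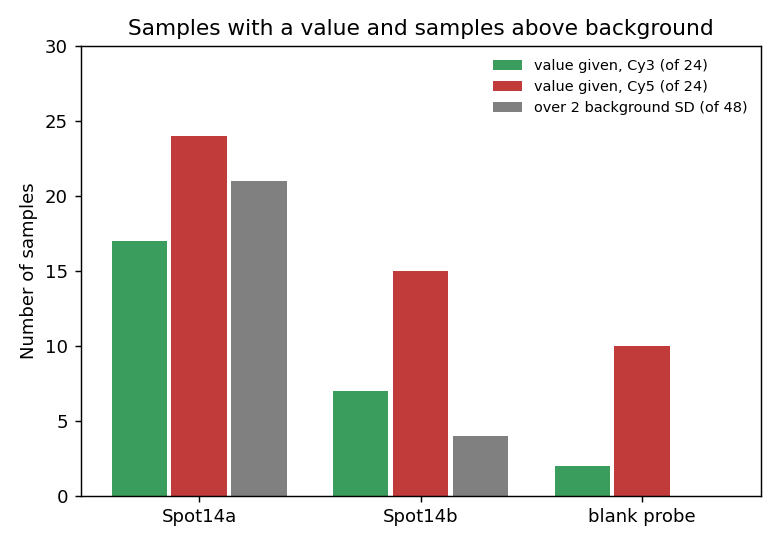
Number of samples with a deposited value, by dye (of 24 each), and number above 2 background SD in the scanner file (of 48), for Spot14a, Spot14b and the blank probe. Spot14a had values in 17 Cy3 and 24 Cy5 samples, Spot14b in 7 and 15, and the blank in 2 and 10, with 21, 4 and 0 samples above background.

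The scanner files showed that the signal of Spot14b was uneven within its spots. Each probe lies on 2 adjacent spots, and the deposited values follow the mean foreground intensity of a spot less its background. For Spot14a, 80 of the 82 spots behind a deposited value also had a foreground median above background, and the median typically stood at 0.938 of the mean. For Spot14b, 41 of 44 spots had a mean above background but only 33 had a median above it. The typical ratio of median to mean was 0.477, and in 21 spots the median was less than 0.5 of the mean. A mean well above the median comes from a minority of bright pixels. Sample 2 of 8 weeks shows this for Spot14b: its mean signals were 1896 and 3933, its median signals were -234 and -244, and its deposited log2 value was 11.04.

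The strongest readings of Spot14a were in sample 5 of 12 weeks, whose spots stood 11664 and 10834 above background (14.0 background SD on average), and in sample 12 of 12 weeks, at 9786 and 9839 (5.29 SD). The median of its 41 measured samples was 2.07 SD. The 4 samples with Spot14b above 2 SD were sample 9 of 6 weeks (3.68 SD), samples 2 and 7 of 8 weeks (2.62 and 3.16 SD) and sample 5 of 10 weeks (3.06 SD), against a median of 0.65 SD over its 22 measured samples. Spot14a was above 2 SD in 6, 4, 5 and 6 samples at 6, 8, 10 and 12 weeks, and Spot14b in 1, 2, 1 and 0.

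The 2 spots of a probe differed by a median of 0.27 on the log2 scale for Spot14a (41 samples) and by 0.53 for Spot14b (19 samples with both spots above background). Pixel saturation was present in 1 spot of Spot14a and 4 of Spot14b. All of these spots were in samples 2, 4 and 7 of 8 weeks, with at most 2% of pixels saturated.

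**Figure D2:**
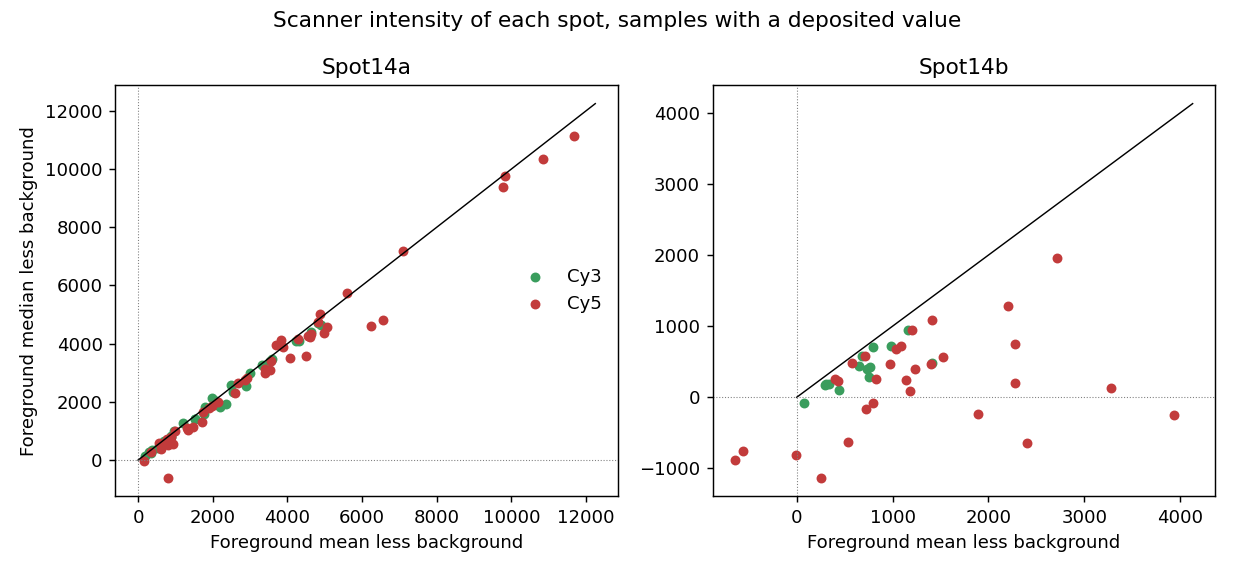
Background-subtracted foreground mean (x axis) against foreground median (y axis), both in scanner intensity units, for each spot of the samples with a deposited value, coloured by dye, with a line at equal values. The 82 spots of Spot14a lie near the line, at a typical ratio of 0.938, and the 44 spots of Spot14b lie below it, at 0.477.

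Levels are given on the authors' log2 scale. That scale holds a constant for each sample, estimated here as the median offset of its values, which ranged from -1.79 to 3.20 against the scanner signal with an SD of 1.40, and no source used here states what it rests on. A level compared between samples carries this constant, whereas a difference of the 2 probes within a sample does not, as far as the same constant holds for both. The levels of each probe are compared between samples below with that limit.

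Spot14a showed no age course that passed a test. At 6 weeks its values ran from 7.67 in sample 12 to 12.11 in sample 6, with a median of 9.80 (10 samples). At 8 weeks they ran from 7.09 in sample 4 to 12.81 in sample 7, with a median of 9.85 (9 samples). At 10 weeks the values lay closest together, from 8.83 to 11.12, with a median of 10.15 (10 samples). At 12 weeks they were the most spread, from 7.37 in sample 2 to 13.37 in sample 5, with a median of 9.31 (12 samples). The 4 ages overlapped, and each held samples both below 9 and above 11.

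The mean of Spot14a was 9.75 ± 1.29 (SD, n = 10) in the youngest birds. At 8 weeks it was 10.21 ± 1.73 (SD, n = 8 units), at 10 weeks 10.25 ± 0.73 (SD, n = 10), and in the oldest birds 9.89 ± 1.93 (SD, n = 12). In order of these means the ages ran 6, 12, 8 and 10 weeks, and no pair of neighbours in that order differed by more than the SD of either. With age and dye in a limma fit, 12 weeks exceeded 6 weeks by 0.20 ± 0.66 (SE), with a 95% interval of -1.11 to 1.50 (adjusted p = 0.908 over 120 differences). The 6 differences between ages ran from -0.31 (12 minus 10 weeks) to 0.51 (10 minus 6 weeks). In these whole-liver samples, fewer cells of a type and less RNA per cell cannot be told apart. The slope was 0.03 ± 0.10 per week (adjusted p = 0.760) and the F test over the 4 ages gave an adjusted p of 0.882. Among the 20 genes the F test called 0 (0%), with 1 gene at an unadjusted p under 0.05, and a permutation test of ranks for Spot14a gave p = 0.561.

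Spot14b had lower values at 10 and 12 weeks than at 6 and 8 weeks in the deposited table, but the difference did not pass a test. Its 3 values at 6 weeks were 9.24 in sample 6, 9.86 in sample 7 and 10.19 in sample 9. At 8 weeks the 7 values ran from 6.61 in sample 10 to 12.12 in sample 7, with a median of 9.88. At 10 weeks the 7 values ran from 6.71 to 9.43, with a median of 8.45. At 12 weeks the 5 values were 6.10, 6.91, 7.19, 9.59 and 10.83. The ages overlapped here too, and 5 of the 7 samples at 8 weeks exceeded every sample at 10 weeks.

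The means of Spot14b were 9.76 ± 0.48 (SD, n = 3), 9.58 ± 1.89 (SD, n = 7), 8.24 ± 0.91 (SD, n = 7) and 8.13 ± 2.00 (SD, n = 5) at 6, 8, 10 and 12 weeks. Between neighbouring ages the fit gave -0.21 ± 1.08 (SE) for 8 minus 6 weeks and -0.13 ± 0.91 (SE) for 12 minus 10 weeks. The step from 8 to 10 weeks was larger, at -1.29 ± 0.85 (SE, adjusted p = 0.695). Samples 2, 4 and 7 of 8 weeks, which held the saturated spots, had Spot14b values of 11.04, 9.47 and 12.12. Their Spot14b spot medians were at most 207 above background, against means of up to 3933. The part of these samples in that step was not tested. In the limma fit with dye, 12 weeks stood at -1.62 ± 1.14 (SE) against 6 weeks, with a 95% interval of -3.90 to 0.65 (adjusted p = 0.743). In these deposited values, with 3 samples at 6 weeks, the later age was the lower one in all 6 differences, from -1.62 to -0.13 (12 minus 10 weeks). The slope was -0.33 ± 0.17 per week (p = 0.0583, adjusted p = 0.583), and the F test gave an adjusted p of 0.518. The slope test called 0 of 20 genes (0%), as did the 120 age differences (0%), of which 8 had an unadjusted p under 0.05. No 12-week sample of Spot14b was above 2 background SD. A bound on the fold between 6 and 12 weeks set at the lowest signal well above background came out under 1, so no fold is given.

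The direction for Spot14b depended on which signal and samples were read. With the foreground median in place of the mean, 12 minus 6 weeks was 0.93 (28 units, adjusted p = 0.829). With normexp-corrected scanner values of all samples, centred on each sample's panel median, it was 0.17 (47 units, adjusted p = 0.974). By normexp 6 weeks was the lowest age of Spot14b. There 8 minus 6 weeks was 0.98 (adjusted p = 0.583) and 10 minus 6 weeks 0.18 (adjusted p = 0.974). With scanner subtraction these were 3.12 and 2.86 (adjusted p = 0.561 in both). The authors' values kept 10 minus 6 weeks below 0 when centred (-0.91) or with the constant taken off (-0.48). For Spot14a, 12 minus 6 weeks was above 0 in all 15 other processings, from 0.15 to 1.40, with adjusted p from 0.583 to 1.00. Centring each sample on the median of its measured panel genes, a set that differs between samples, moved it to 0.89. Spot14b moved to -0.58 with the same centring. The mean of these sample medians was 9.88 at 6 weeks and 9.05 at 12 weeks. With the constant taken off, 12 minus 6 weeks was 0.40 for Spot14a and -0.41 for Spot14b. The constant had means of 0.91, 0.36, 0.54 and 1.35 at 6, 8, 10 and 12 weeks. Its part in the lower late values of Spot14b was not tested.

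**Figure D3:**
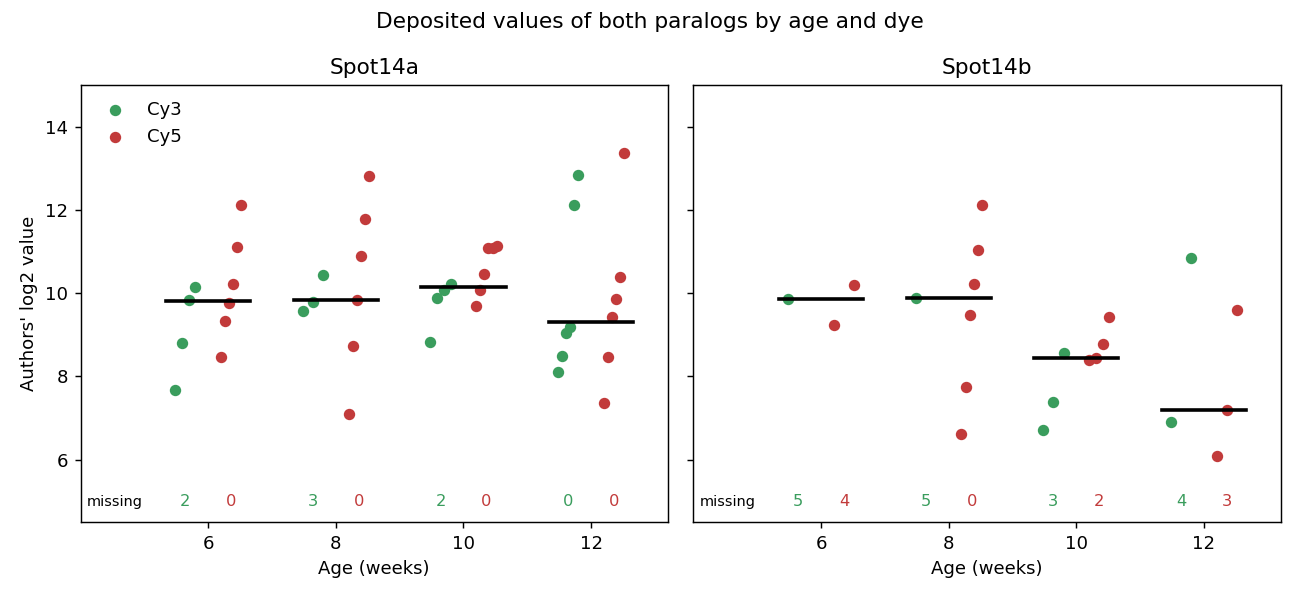
Authors' log2 value (y axis) of Spot14a and Spot14b by age in weeks (x axis), 1 point for each sample, coloured by dye, with the median of an age as a black line and the number of missing samples at the bottom. The ages overlap for both probes. Spot14b medians are 9.86, 9.88, 8.45 and 7.19, from 3, 7, 7 and 5 samples.

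**Figure D4:**
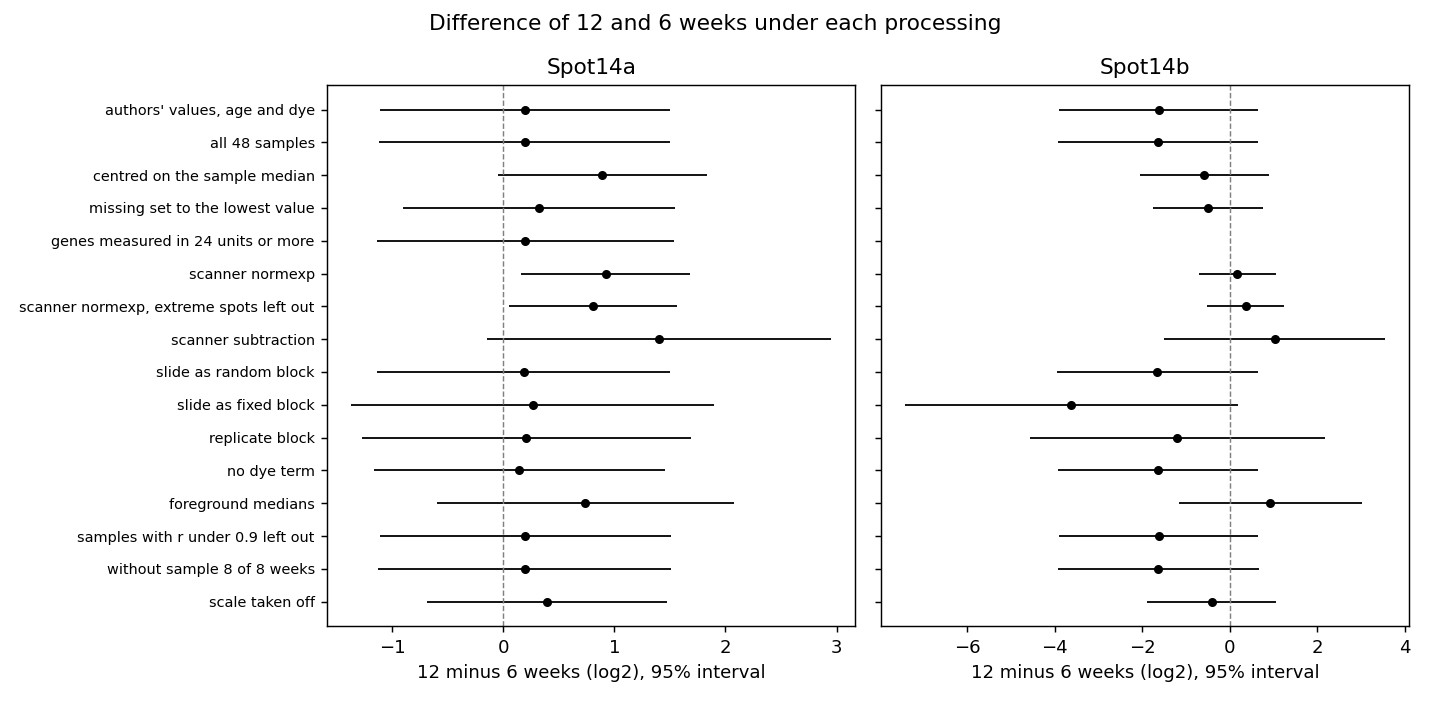
Estimated difference of 12 and 6 weeks on the log2 scale (x axis) with its 95% interval under each processing (y axis). Spot14a lies above 0 in every row, from 0.15 to 1.40. Spot14b runs from -3.62 to 1.03. Spot14b has no value where genes in under 24 units were left out.

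The dye had no effect on the level of either paralog that passed the test on the authors' values. Spot14a was 0.54 ± 0.50 (SE) higher with Cy5 (adjusted p = 0.634) and Spot14b 0.25 ± 0.73 (SE) higher (adjusted p = 0.943). In this fit the averaged unit counted as midway between the dyes, although its Spot14b value came from Cy5 alone. With sample 8 of 8 weeks left out and sample 5 taken as Cy5, Spot14a was 0.47 ± 0.50 (SE) higher (adjusted p = 0.707). Spot14b was then 0.04 ± 0.74 (SE) higher (adjusted p = 0.955). The dye test called 4 of the 20 genes (20%), namely FAS, UCP, OBR and CPT-1. The age slope of Spot14a was 0.12 ± 0.16 (SE) per week within Cy3 and -0.03 ± 0.14 (SE) within Cy5, and that of Spot14b was -0.24 ± 0.30 (SE) and -0.38 ± 0.21 (SE). The slopes of the 2 dyes differed by -0.15 ± 0.21 (SE) for Spot14a and -0.14 ± 0.37 (SE) for Spot14b (both adjusted p = 0.942, 0% of genes called). Within slides with values at more than 1 age, Spot14a sloped upward on 4 of 9, with slopes from -1.08 to 0.76 per week. Spot14b did so on 0 of 5, with slopes from -1.03 to -0.003. The slope of -0.003 came from the slide with the most Spot14b samples (n = 6), and the others from 2 or 3 samples each. The slides of Spot14a held 2 to 11 samples. Over all samples, 18 of the 20 genes sloped below 0, and the counts of slides were not tested.

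In the samples where both had a value, the deposited levels of the 2 paralogs were positively correlated, short of the threshold once adjusted. Pearson's r was 0.484 (n = 21, permutation p = 0.0267) and Spearman's rho was 0.475 (permutation p = 0.0316). After adjustment over the 11 forms of this correlation computed, these were 0.0735 and 0.0868. Without the 2 samples farthest from the median of Spot14a, r was 0.642, and on residuals after age and dye it was 0.608 (adjusted p = 0.0214 in both). Within Cy5, r was 0.459 (n = 15, permutation p = 0.0842), and within Cy3 it was 0.493 over 6 samples (exact permutation p = 0.349). On residuals after slide it was 0.377 (permutation p = 0.0927). The permutations of residuals did not allow for the age, dye or slide terms fitted, so the p-values given on residuals are too small.

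Most pairs of panel genes were correlated in the same way. Of all 190 pairs of panel genes, 184 had a positive r on the deposited values, their median was 0.618, and the pair of Spot14a and Spot14b was 137th from the highest. With each sample centred on the median of its measured panel genes, r was 0.077 (permutation p = 0.739), against a median of 0.097 over all pairs. With the constant taken off it was 0.0053 (permutation p = 0.982). The deposited values of Spot14b followed the constant at r = -0.838 (n = 22, permutation p = 1e-05, the smallest these permutations can give, adjusted p = 2e-05, and -0.863 without the 2 farthest samples). Those of Spot14a followed it at -0.551 (n = 40, permutation p = 0.00026, -0.533 without the 2 farthest samples). Part of these correlations is built in, since the constant is subtracted from the signal.

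The difference between the paralogs within a sample is free of that constant only as far as both probes share it. In 25 of the 48 samples most values lay within 0.02 of 1 constant. In sample 4 of 8 weeks 0% of values did, and in sample 5 of 12 weeks 7.7%. The deposited difference can therefore still carry an offset that differs between the probes. It is a difference against a Spot14b signal that was above 2 background SD in 4 of the 21 samples. At 12 weeks it was so in 0 of the 5, where that signal was 0.34 to 1.07 SD. Spot14a was also weak where the difference was below 0, at 0.42 SD in sample 7 of 6 weeks and 0.20 SD in sample 4 of 8 weeks. In the 5 samples at 12 weeks Spot14a was at 2.11 to 14.0 SD. The differences are therefore a description of the deposited numbers, and no fold is read from them. Spot14a minus Spot14b was -1.07, 0.04 and 2.87 in the 3 samples at 6 weeks. At 8 weeks the 6 samples ran from -2.38 to 3.23 with a median of 0.72, and at 10 weeks the 7 samples ran from 0.27 to 3.17 with a median of 2.67. At 12 weeks the 5 samples ran from 2.02 to 3.78 with a median of 3.21. The younger ages each held samples below 1 and no 12-week sample did. Since the probes differ in sequence, the size of the difference at any 1 age has no meaning of its own, and only its course over age is described.

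The fitted slope of the deposited difference was 0.48 ± 0.16 (SE) per week, with dye as a term (95% interval 0.15 to 0.80, permutation p = 0.00529, n = 21). Leaving out any 1 sample kept the slope between 0.42 and 0.60. It was 0.45 within Cy5 (n = 15, permutation p = 0.0383), 0.54 within Cy3 (n = 6, exact permutation p = 0.117) and 0.63 with slide as a term (95% interval 0.25 to 1.01). No permutation p is given for the fit with slide, since the permutations did not allow for the terms spent on slides. The same slope was computed for all 190 pairs of genes. At an unadjusted threshold of 0.05, 24 of them passed (12.6%), the paralog pair had the second smallest p, and after adjustment over the 190 none passed (0%, adjusted p = 0.340 for the paralogs). Of the 19 pairs with Spot14b, 7 passed unadjusted, and of those with Spot14a 3 did, the paralog pair being counted in both.

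The slope depended on the signal and on the samples read. It was 0.37 with normexp values in the same 21 samples (permutation p = 0.00105), 0.15 in all 47 units by normexp (permutation p = 0.108) and 0.24 with foreground medians (n = 27, permutation p = 0.159). Subtraction set net signals under 1 to 1 before log2. With it the slope was 0.15 in 20 of these samples (permutation p = 0.583) and 0.054 in all 46 (permutation p = 0.820). In the 12 samples where the blank had a value it was 0.34 (permutation p = 0.0373), and in the 9 where the blank had none it was 0.55 (exact permutation p = 0.234).

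**Figure D5:**
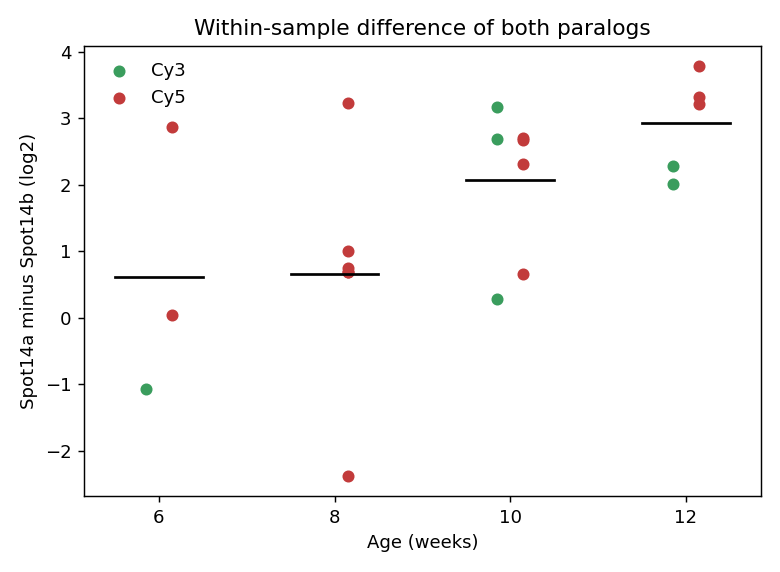
Spot14a minus Spot14b on the log2 scale (y axis) in each of the 21 samples with both values, by age in weeks (x axis), coloured by dye, with the mean of an age as a black line. The means were 0.61, 0.66, 2.07 and 2.92 at 6, 8, 10 and 12 weeks.

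The other genes of lipid synthesis on the panel are FAS, read here as fatty acid synthase, ACC, acetyl-CoA carboxylase, and Pyr-kin, pyruvate kinase, which supplies carbon for fat synthesis. None of these 3 passed the age F test, the slope test or any pairwise difference. Their slopes were -0.09 ± 0.12, -0.11 ± 0.19 and -0.12 ± 0.10 (SE) per week for FAS, ACC and Pyr-kin, beside a median of -0.10 over the 20 genes, of which 18 sloped below 0. Spot14a, at 0.03, was thus on the other side of 0 from all 3, and Spot14b, at -0.33, had the lowest slope of these 5. The within-sample difference of Spot14a and each enzyme was also fitted over age, in the samples with both values. These slopes therefore need not equal the differences of the slopes above. For Spot14a the slope was 0.04 against FAS (n = 37, permutation p = 0.740), 0.35 against ACC (n = 15, permutation p = 0.0484) and 0.19 against Pyr-kin (n = 40, permutation p = 0.0549). For Spot14b it was -0.28, -0.21 and -0.10 (n = 19, 12 and 22, permutation p = 0.197, 0.184 and 0.558). None of these passed after adjustment over the 190 pairs of genes, the smallest adjusted p being 0.359. Of 8 further lipid genes (AMPKg2 and AMPKg3, subunits of the kinase that restrains lipogenesis, LPL, L-FABP, H-FABP, Apo-B, CPT-1 and UCP), 0 passed any test over age.

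On residuals after age and dye, the genes most like Spot14a were AMPKg2 at a Spearman rho of 0.733 (n = 23 units), GH at 0.562 (n = 22) and Apo-B at 0.547 (n = 34). Those most like Spot14b were Apo-B at 0.796 (n = 18), CPT-1 at 0.765 (n = 17) and GH at 0.738 (n = 16). The median over all genes with at least 12 shared units was 0.469 for Spot14a and 0.573 for Spot14b. With samples centred on their medians, the 3 genes of Spot14a stood at 0.242, -0.281 and 0.121, and those of Spot14b at 0.548, 0.605 and 0.421. The order changed for both. Centred, FAS at 0.362 and UCP at 0.359 stood above all 3 genes of Spot14a. For Spot14b, CPT-1 then stood above Apo-B, and AMPKg2, at 0.505, above GH. All points share the sample's constant in the deposited values, and the genes were picked for their rho, so these are descriptions.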

How the data were processed

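The authors' processed table was deposited as log2 values for 48 samples and 32 probes, with a numeric code for missing. Scanner files hold the intensity of 64 spots and the percent of saturated pixels at both wavelengths, with GenePix Pro and no normalization, per the file headers. Deposited values follow log2 of the mean net signal of the spots above background less a constant per sample, closely in some samples only: in 25 of 48 most of the values lay within 0.02. Values matched their own scanner file at a median r of 0.992, the lowest being 0.769 in a 10-week sample (number 4) that lacks both paralogs. Probe names of spots rest on this match, made on the values. Both paralogs' columns were matched best by their own spots (r = 0.994 and 0.967).

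Linear models of age plus dye were fitted to the measured values (R 4.3.3, limma 3.58.1), adjusted by Benjamini-Hochberg over 20 genes (120 for pairs), threshold 0.05. Normexp used an offset of 50. Permutation tests (2-sided, 100000 resamples) ran under Python 3.11.15, scipy 1.17.1 and numpy 2.4.6. The tests were tested on simulated data. For the age fits each gene was drawn independently there, with no sample constant, dye or slide effect and with missing values unrelated to level. Those simulations therefore do not cover such effects in the data. Members, lists and tests were chosen with earlier results of these data known. Named genes are both paralogs, the lipid genes and the 3 genes most alike to each paralog. Replicate numbers were not taken as pairs: of 67 same-numbered pairs across ages, 24 deviated together at r over 0.1. Differently numbered pairs were not set beside them, so this count cannot decide whether the numbers pair samples. No sequences of the probes were used here.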

Additional observations from a re-analysis of the deposited data

How the results depend on the processing

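No age test of any gene, and none of either paralog, crossed the threshold under the 15 alternatives to the fit or when any 1 unit was left out. For Spot14b, 12 minus 6 weeks reversed to 0.17 with scanner normexp, 0.37 with normexp and extreme spots left out, 1.03 with scanner subtraction and 0.93 with foreground medians. Its slope reversed to 0.019, 0.15 and 0.067 in the last 3 of these. The normexp and subtraction values were also centred within each sample, and subtraction set net signals under 1 to 1. Centring the authors' values alone left 12 minus 6 weeks at -0.58. The cause of the reversals was not tested. Leaving out 1 unit moved 12 minus 6 weeks between -0.12 and 0.48 for Spot14a and between -2.38 and -1.05 for Spot14b, and the slope between -0.014 and 0.078 for Spot14a and between -0.44 and -0.24 for Spot14b.

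The dye effect on Spot14a passed with scanner subtraction (1.43, adjusted p = 0.0454) and foreground medians (1.35, adjusted p = 0.0303). The number of genes called for dye was 2 with slide as a fixed block, 2 with the replicate block and 7 with the constant taken off, against 4. With the replicate block, 12 minus 6 weeks was 0.21 for Spot14a and -1.20 for Spot14b, and it changed no call of either paralog. Above 2 background SD, the excess of Cy5 samples with Spot14a was 3 and no longer passed.

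At an unadjusted p, the threshold used in this paragraph, the correlation of the paralogs and the slope of their difference passed on the authors' values, and neither did after adjustment (0.0735 and 0.340). The correlation did not pass when centred (0.077), with the constant taken off (0.0053), by normexp in the same samples (0.282) or all (0.133), within Cy3 (0.493), within Cy5 (0.459) or after slide (0.377). The normexp values were centred too. The slope of the difference did not pass by normexp in all units (0.15), by subtraction in the same samples (0.15) or all (0.054), with medians (0.24), within Cy3 (0.54) or where the blank had no value (0.55). Scanner settings, medians, the blank and the paralogs' difference were examined in part after seeing the data.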
